A study of Homo sapiens with 18 samples.

Results

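The RNAs described here were 9 long noncoding RNAs known from prostate cancer: PCA3, PCAT1, PCAT14, PCAT18, PCGEM1, DRAIC, ARLNC1, NEAT1 and MALAT1. They were chosen by name, with earlier results of these data known, so counts of members set beside all genes are descriptive. Each symbol was matched to its Ensembl identifier, and all 9 of 9 were present among the 60675 genes of the count tables, of which 15380 were long noncoding RNA genes. The data were read counts per gene from poly(A)-selected RNA-seq of prostate cancer cell lines, in 18 libraries of 6 groups with 3 replicates each. LNCaP is an androgen-dependent line, and C4-2 is a line derived from LNCaP that grows without androgen. All groups were grown in phenol red-free medium with serum depleted of steroid hormones (charcoal-stripped, per the labels), and all were transfected with siRNA. In each line, cells given a non-targeting (scrambled) siRNA pool were treated with vehicle or with R1881, a synthetic androgen, at 1 nM for 72 h, and another group received siRNA pools against the lysine demethylases KDM1A and KDM7A together with R1881. Knockdown without R1881 was not analysed here, so each knockdown group was set against the R1881 group of its line, and these R1881 libraries also entered the comparison with vehicle. Each line is a single cultured line, the replicates are given only as numbered samples, and p-values then measure the spread between these samples, which may be technical.

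Long noncoding RNAs are transcripts that do not encode a protein, and many are restricted to a single tissue. Androgens drive the transcription of many genes in prostate cells, and several prostate-restricted long noncoding RNAs are among them. KDM1A and KDM7A remove methyl groups from histone lysines. PCA3 is measured in urine as a diagnostic marker of prostate cancer. ARLNC1 is an androgen-induced RNA, PCGEM1 and PCAT18 are prostate-restricted RNAs tied to androgen signalling, DRAIC is an RNA described as repressed by androgen, and PCAT1 and PCAT14 were found by sequencing prostate tumours. NEAT1 is the RNA scaffold of paraspeckles, nuclear bodies held together by the long form of the RNA and proteins such as SFPQ and NONO, and MALAT1 is an abundant RNA of nuclear speckles, where splicing factors are stored.

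Total counts per library ranged from 3182604 to 20154243, and the smallest library was replicate 3 of the C4-2 vehicle group. The titles of the 3 C4-2 vehicle libraries name C4-2 and another field of their labels names LNCaP. They were grouped by title, and TMEFF2, at 164 to 197 CPM (counts per 1000000 counted reads) in every LNCaP library, was at 0.271 to 0.748 CPM in them and at 0.127 to 1.41 CPM in the other C4-2 libraries. KDM1A fell from 108 ± 4.88 to 52.1 ± 2.69 CPM (SD, n = 3) with the knockdown in LNCaP and from 143 ± 2.55 to 16.6 ± 2.89 CPM in C4-2, and KDM7A fell from 59.6 ± 4.22 to 31.1 ± 2.84 CPM and from 121 ± 10.2 to 21.5 ± 2.80 CPM, so both siRNA targets were lowered further in C4-2 (difference between lines, adjusted p = 2.36e-09 for KDM1A and 6.06e-07 for KDM7A). KLK3, which encodes prostate-specific antigen, rose with R1881 from 340 ± 15.1 to 4527 ± 218 CPM in LNCaP and from 21.3 ± 3.65 to 399 ± 18.7 CPM in C4-2. All 9 luminal prostate markers examined were present, with a summed level of 2077 to 13100 CPM, while the 3 basal markers summed to at most 1.62 CPM, the 3 neuroendocrine ones to 0.541 to 3.60 CPM and the 4 stromal ones, mostly COL1A1 and ACTA2, to 12.5 to 37.0 CPM. The 3 leukocyte markers summed to 0.0637 to 3.57 CPM: PTPRC was at 1.62 to 3.25 CPM in the C4-2 vehicle libraries and at no more than 0.185 CPM in any other library, CD3E never passed 0.116 CPM, and the part of this in the comparisons with C4-2 vehicle was not tested.

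Levels were compared as CPM on library sizes corrected by the trimmed mean of M-values (TMM), and between genes as CPM per kilobase of exon. Changes are log2 fold changes with their standard error (SE) from edgeR's quasi-likelihood test, and a gene was said to have risen, fallen or changed where the p-value adjusted by the Benjamini-Hochberg method over all genes tested was under 0.05. Where a group held no count, 3 counts over the whole group were put in its place and the fold is given as a bound, and intervals on counts are exact 95% intervals that cover counting error only.

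MALAT1 (chr11:65497762-65506516, plus strand) had the highest level of the 9 RNAs in every group, and the levels of the set spanned several orders of magnitude. Per kilobase, MALAT1 was at 548 CPM in LNCaP vehicle cells, followed by NEAT1 (chr11:65422774-65445540, plus strand) at 40.9 and PCAT1 (chr8:126847055-127021014, plus strand) at 25.5. DRAIC (chr15:69463026-69571440, plus strand) stood at 4.11 and PCGEM1 (chr2:192749845-192776899, plus strand) at 1.38 CPM per kilobase. These 5 did not overlap with their neighbours in that order. PCA3 (chr9:76764436-76787569, plus strand) at 0.137 and ARLNC1 (chr16:80828735-80892595, minus strand) at 0.102 CPM per kilobase overlapped, PCAT14 (chr22:23536881-23547797, plus strand) followed at 0.0392, and PCAT18 (chr18:26687621-26703638, minus strand) had no count. Coordinates are on GRCh38.

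In LNCaP, MALAT1 ranked 1 and NEAT1 ranked 10 per kilobase among 9820 detected long noncoding RNA genes, PCAT1 ranked 17, and MALAT1 alone took 19.96% to 27.8% of all long noncoding RNA counts. In C4-2, MALAT1 again ranked 1, of 9970, with 5.92% to 10.6% of those counts, while NEAT1 ranked 100 and PCAT1 ranked 615. These ranks pool the 3 groups of a line. Reads in exon bases shared with other genes, 23.3% of those of MALAT1, are missing from the counts. DRAIC ranked 618 in LNCaP and 256 in C4-2, while its vehicle means, 11.6 and 11.9 CPM, gave a log2 difference of 0.07 that did not pass edgeR’s test (adjusted p = 0.725).

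**Figure D1:**
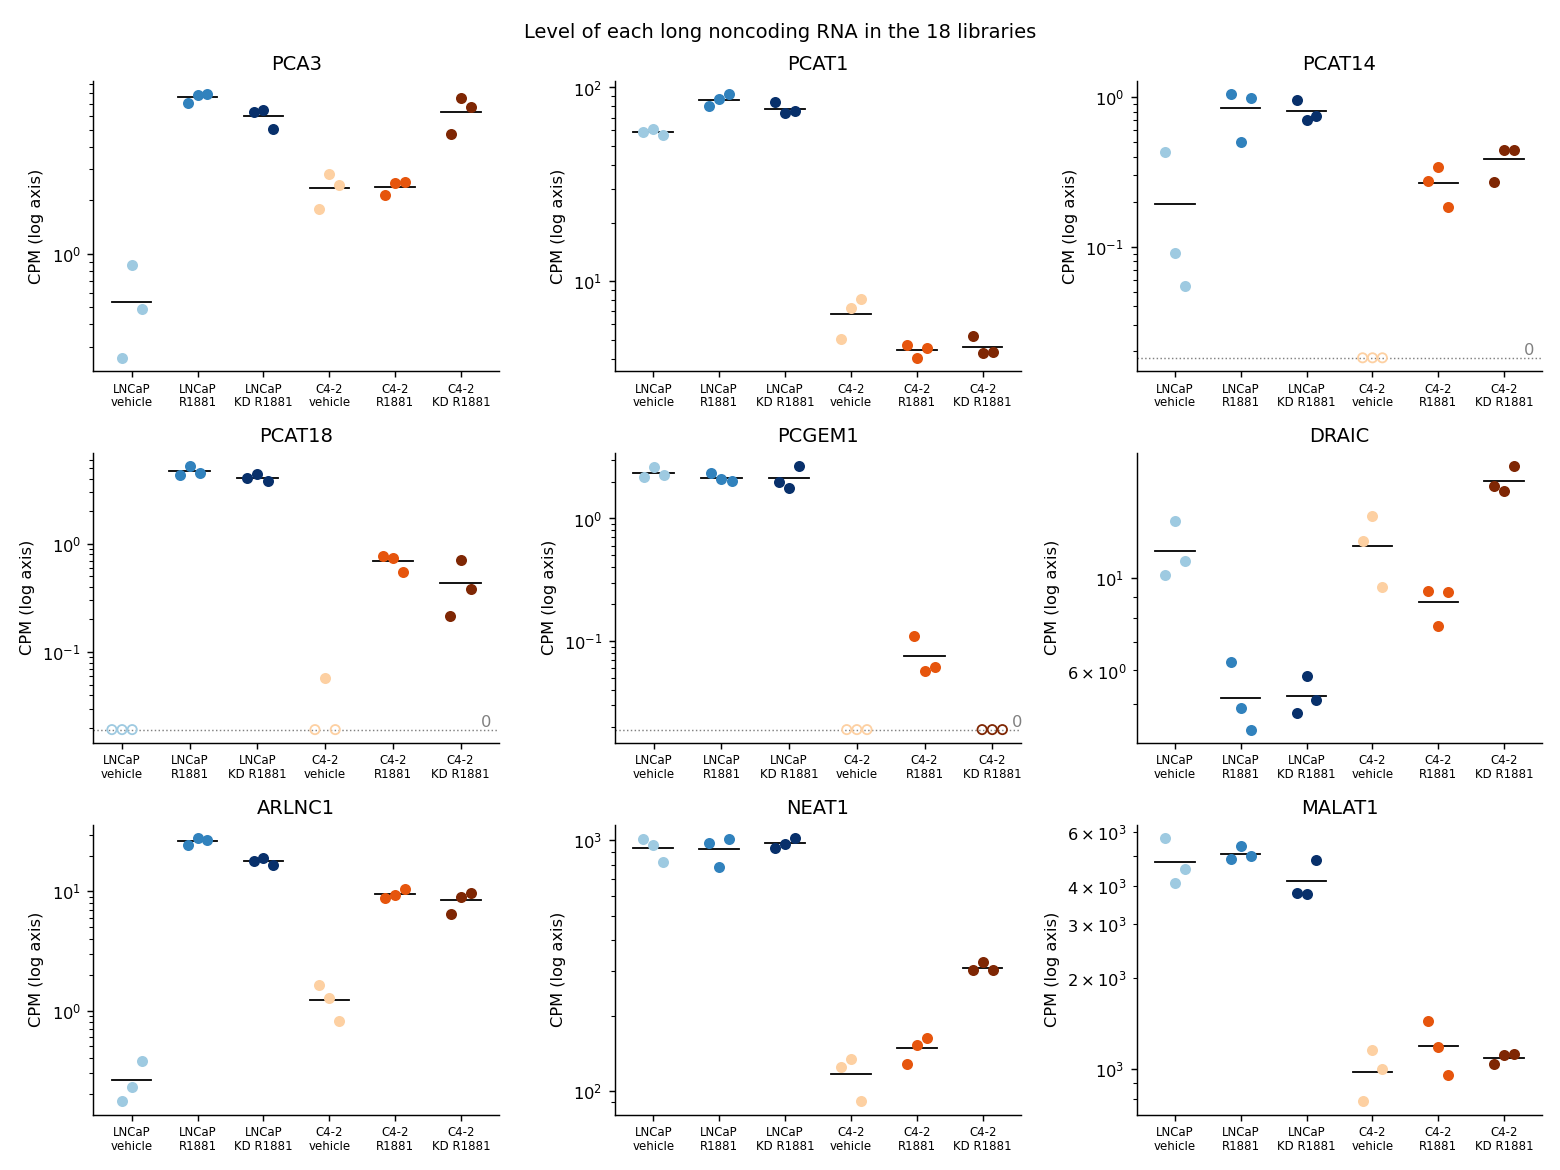
Level of the 9 long noncoding RNAs in the 18 libraries, as CPM on a log axis that differs between panels, with a panel per RNA, a point per library and a line at the mean of 3 replicates (KD, knockdown of KDM1A and KDM7A). Open circles on the dotted line are libraries with no count. PCAT18 had no count in LNCaP vehicle cells and PCGEM1 none in C4-2 vehicle or knockdown cells.

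The first comparison asked how the RNAs responded to androgen. With R1881 in LNCaP, ARLNC1, PCAT18, PCA3, PCAT14 and PCAT1 rose, DRAIC fell, and NEAT1, MALAT1 and PCGEM1 did not pass the test. Of the 9 members tested, 5 rose, beside 23.5% of all 17162 genes tested, and 1 fell, beside 23.2%. Among long noncoding RNA genes alone, 9.21% rose and 20.4% fell. The median log2 fold change of the members was 0.51, against −0.04 over all genes tested. PCAT18, PCAT14 and ARLNC1 had 0, 8 and 14 counts over the vehicle group and entered this test through the groups given R1881. Their place among the members that rose thus follows in part from the filter.

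ARLNC1 showed the largest fold change of the members with counts in both groups. Its 3 vehicle libraries were at 0.173, 0.227 and 0.380 CPM (2, 5 and 7 counts) and its 3 R1881 libraries at 24.6, 28.2 and 26.9 CPM. The groups lay far apart, and the log2 fold change was 6.55 (SE 0.18, adjusted p = 1.15e-14). In bulk RNA of a culture, fewer cells with an RNA and less of it per cell cannot be told apart.

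PCAT18 had no count in any LNCaP vehicle library and 79, 73 and 79 counts with R1881, at 4.35, 5.24 and 4.57 CPM. With 3 counts put in place of the empty group, PCAT18 was at least 81.1-fold higher with R1881 (adjusted p = 9.91e-10). Of its exon bases, 24.8% were shared with other annotated genes, among them AQP4-AS1 on the opposite strand, and reads in such bases were not counted. The shared part was 23.3% for MALAT1, 10.4% for PCA3 and at most 7.65% for each other member.

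PCA3 went from 0.260, 0.863 and 0.488 CPM to 7.10, 7.83 and 7.92 CPM, a log2 fold change of 3.65 (SE 0.26, adjusted p = 3.55e-09). PCAT14 held 8 counts over the vehicle group and 43 over the R1881 group. Its vehicle libraries were at 0.433, 0.0909 and 0.0543 CPM and its R1881 libraries at 1.05, 0.503 and 0.983 CPM, so the highest vehicle library lay just under the lowest treated library. The count ratio was 5.66 (95% interval 2.63 to 13.9) and the log2 fold change 2.35 (SE 0.59, adjusted p = 0.00355), which became 3.39 without replicate 1 of the vehicle group.

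PCAT1 rose by a small and even amount, from 58.8, 61.2 and 57.2 CPM to 79.8, 86.7 and 92.3 CPM (log2 fold change 0.51, SE 0.07, adjusted p = 1.76e-05). DRAIC was the member that fell, from 10.1, 13.7 and 10.96 CPM to 6.27, 4.88 and 4.33 CPM (log2 fold change −1.21, SE 0.16, adjusted p = 1.25e-05), with no overlap between groups.

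PCGEM1 was at 2.16, 2.63 and 2.28 CPM with vehicle and 2.37, 2.08 and 2.02 CPM with R1881. The ranges overlapped, and the 125 against 107 counts gave a ratio of 0.901 with a 95% interval of 0.690 to 1.18. NEAT1 (931 ± 98.7 against 925 ± 123 CPM, log2 fold change −0.05, SE 0.09) and MALAT1 (4800 ± 861 against 5105 ± 258 CPM, log2 fold change 0.05, SE 0.11) had fold changes smaller than their standard errors.

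In C4-2, R1881 raised ARLNC1 and PCAT18, and DRAIC and PCAT1 fell. PCAT14 and PCGEM1 had too few counts to be tested. Of the 7 members tested, 2 rose, beside 17.1% of all 16965 genes, and 2 fell, beside 15.7%. The median log2 fold change was 0.24 for the members and −0.02 for all genes. PCAT18, with 1 count over the vehicle group, entered this test through the groups given R1881, so its call follows in part from the filter.

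ARLNC1 went from 1.63, 1.26 and 0.811 CPM to 8.75, 9.38 and 10.5 CPM, a log2 fold change of 2.79 (SE 0.23, adjusted p = 3.3e-07). PCAT18 had a single count over the 3 vehicle libraries and 14, 13 and 9 counts with R1881, at 0.771, 0.739 and 0.554 CPM. That is a count ratio of 27.8, with a wide 95% interval of 4.68 to 1127 (adjusted p = 0.00136). PCAT14 had no count with vehicle and 5, 6 and 3 with R1881, which bounds the rise at 3.60-fold or more. ARLNC1, PCAT18 and PCAT14, which rose in LNCaP, were thus higher in every C4-2 library with R1881 than in any with vehicle. PCAT14 was not tested here, and PCAT18 rests on 1 against 36 counts. The share of all genes separated in this way was not computed.

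PCA3 was already at 1.78, 2.82 and 2.43 CPM in C4-2 vehicle cells and at 2.15, 2.50 and 2.52 CPM with R1881. The ranges overlapped and the log2 fold change was 0.02 (SE 0.26, adjusted p = 0.961). DRAIC went from 12.2, 14.0 and 9.47 CPM to 9.30, 7.67 and 9.23 CPM, ranges that came close without overlapping (log2 fold change −0.52, SE 0.14, adjusted p = 0.00931). Without replicate 2 of the vehicle group or replicate 2 of the R1881 group its adjusted p was 0.0759 or 0.0522, and with all libraries thinned to the smallest its log2 fold change was −0.10 (adjusted p = 0.791).

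PCAT1 fell in C4-2, from 5.04, 7.25 and 8.11 CPM to 4.68, 4.03 and 4.55 CPM (log2 fold change −0.60, SE 0.21, adjusted p = 0.0381). This call was lost without any of 6 libraries, among them the smallest one (adjusted p = 0.0731), and the adjusted p reached 0.152 without replicate 2 of the vehicle group. NEAT1 lay at 117 ± 22.8 CPM with vehicle and 148 ± 17.6 CPM with R1881 (log2 fold change 0.29, SE 0.11, adjusted p = 0.0524), and the call changed with the setting, from 0.0233 with DESeq2 and 0.0446 with another scaling to 0.197 on leaving out a library. MALAT1 gave a log2 fold change of 0.24 (SE 0.15, adjusted p = 0.236).

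Tested as a difference between lines, the signed log2 fold change with R1881 was lower in C4-2 than in LNCaP for 3 members and higher for 1, beside 7.95% and 6.05% of all 18684 genes tested. The log2 fold change in C4-2 minus that in LNCaP was −3.79 for ARLNC1 (SE 0.36, adjusted p = 1.23e-07), −3.64 for PCA3 (SE 0.39, adjusted p = 8.71e-07), −1.07 for PCAT1 (SE 0.18, adjusted p = 2.77e-04) and 0.68 for DRAIC (SE 0.22, adjusted p = 0.0431). PCAT1 rose in LNCaP and fell in C4-2, and DRAIC fell in both lines, by less in C4-2. For ARLNC1 and PCA3 the vehicle level was higher in C4-2 and the R1881 level was higher in LNCaP, so the lines differed at both ends of the response. The DRAIC difference was the weakest and lost its call when any of 13 libraries was left out, with an adjusted p of up to 0.145, and with thinned libraries the ARLNC1 difference was −2.09 (adjusted p = 0.0501). For PCAT14, PCAT18 and PCGEM1 at least 1 group had no count, and no fitted difference is given.

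**Figure D2:**
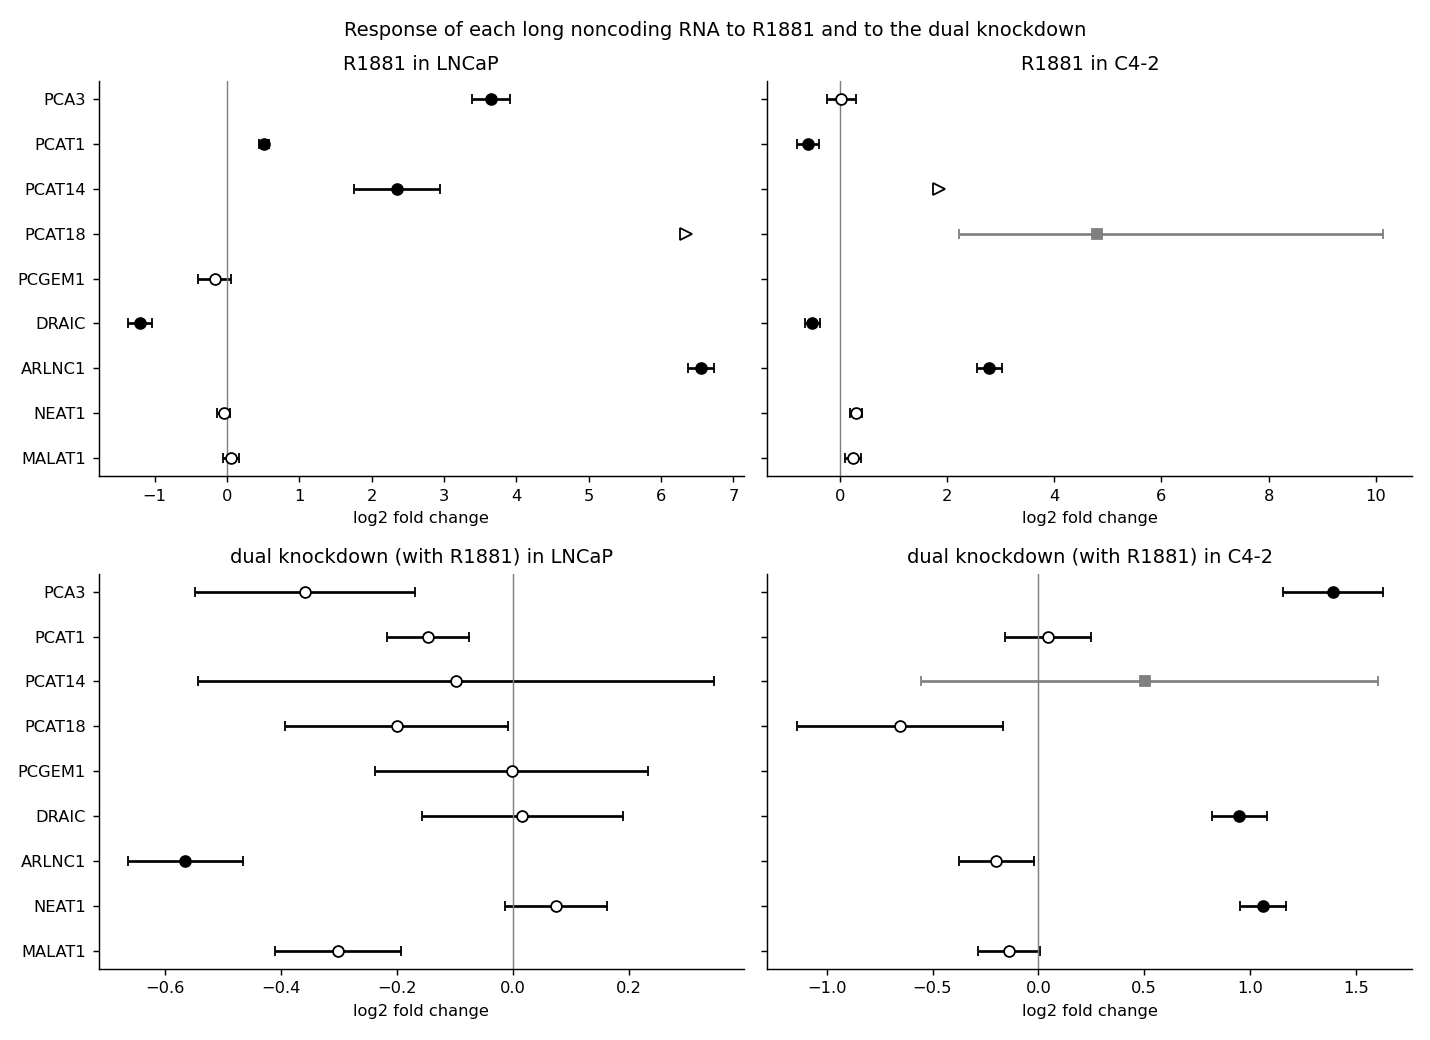
Log2 fold change of each member with R1881 against vehicle (top) and with the dual knockdown against R1881 alone (bottom), in LNCaP (left) and C4-2 (right), on axes that differ between panels. Circles are fitted values with their standard error and are filled where the adjusted p was under 0.05. Open triangles are lower bounds against a group with no count, and grey squares are count ratios with their 95% interval. ARLNC1 rose with R1881 in both lines, and PCA3, DRAIC and NEAT1 rose with the knockdown in C4-2. PCGEM1 is not drawn for C4-2.

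The start sites of 5 of the 9 members had an entry in RefSeq on GRCh38.p14. The sequences below show 3 of them, chosen because the RNAs differed in their response to R1881: PCAT18 rose in both lines, PCA3 rose in LNCaP and did not pass the test in C4-2, and PCGEM1 did not pass it in LNCaP. Each runs 5′ to 3′ on the strand of the gene from 250 bases before its start to 50 bases within it. Capitals mark AGAACA or its reverse complement TGTTCT, the core of the hormone response element of steroid-regulated genes.
PCAT18 (chr18:26703589-26703888, minus strand): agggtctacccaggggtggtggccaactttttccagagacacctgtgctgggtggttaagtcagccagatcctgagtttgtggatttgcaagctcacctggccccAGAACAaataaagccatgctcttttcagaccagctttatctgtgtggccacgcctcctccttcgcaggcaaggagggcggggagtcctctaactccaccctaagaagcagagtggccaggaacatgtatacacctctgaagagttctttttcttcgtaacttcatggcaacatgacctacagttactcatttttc
PCA3 (chr9:76764186-76764485, plus strand): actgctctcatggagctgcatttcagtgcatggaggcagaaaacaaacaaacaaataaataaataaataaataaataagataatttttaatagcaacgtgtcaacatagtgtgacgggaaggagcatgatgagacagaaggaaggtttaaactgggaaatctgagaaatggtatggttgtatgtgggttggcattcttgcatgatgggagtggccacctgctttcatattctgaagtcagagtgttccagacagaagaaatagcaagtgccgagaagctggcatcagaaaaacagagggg
PCGEM1 (chr2:192749595-192749894, plus strand): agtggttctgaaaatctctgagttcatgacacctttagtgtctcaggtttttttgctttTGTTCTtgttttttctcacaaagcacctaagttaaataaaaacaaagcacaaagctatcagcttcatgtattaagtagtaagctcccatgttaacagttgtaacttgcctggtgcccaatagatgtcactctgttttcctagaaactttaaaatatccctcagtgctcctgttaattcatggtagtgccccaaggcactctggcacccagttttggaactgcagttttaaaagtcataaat
PCAT18 held the core at −145 and PCGEM1 at −191 from its start, and PCA3 and DRAIC held none in this window. Of the starts that RefSeq lists for MALAT1, 1 held the core, at −41, and MALAT1 did not pass the test with R1881 in either line. The core, on either strand, was in 14.8% of 35116 RefSeq promoters of the same length, and the paired element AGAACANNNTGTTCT was in 1 of them and in no member.

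The comparison with knockdown asked whether lowering KDM1A and KDM7A changed the RNAs in the presence of R1881. In LNCaP, ARLNC1 fell and no other member passed the test. That is 0 of 9 members higher, beside 8.27% of all genes, and 1 of 9 lower, beside 5.89%. The median log2 fold change of the members was −0.15, against 0.00 over all genes. At an unadjusted p under 0.05 the number higher was also 0, as with DESeq2, and MALAT1 was the other member below its control.

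ARLNC1 was at 24.6, 28.2 and 26.9 CPM with the scrambled siRNA and 18.1, 19.04 and 16.6 CPM with the knockdown. The groups did not overlap, and the log2 fold change was −0.56 (SE 0.10, adjusted p = 0.00318), or −0.38 (adjusted p = 0.184) with thinned libraries. MALAT1 was at 4913, 5398 and 5005 CPM against 3781, 3767 and 4860 CPM, with knockdown replicate 3 just below the controls (log2 fold change −0.30, SE 0.11, adjusted p = 0.0735). This call changed with the setting: leaving out replicate 3 of the knockdown group, or replicate 1 or 2 of the vehicle group, brought the adjusted p to 0.0189, 0.00879 and 0.0334.

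The androgen-induced PCA3 (7.62 ± 0.451 against 5.93 ± 0.781 CPM, adjusted p = 0.229) and PCAT18 (4.72 ± 0.468 against 4.09 ± 0.311 CPM, adjusted p = 0.542) gave lower means with the knockdown that did not pass the test, as did PCAT1 (86.3 ± 6.25 against 77.8 ± 5.10 CPM, adjusted p = 0.18). DRAIC (5.16 ± 0.998 against 5.22 ± 0.549 CPM) and NEAT1 (925 ± 123 against 972 ± 48.4 CPM) gave log2 fold changes of 0.02 and 0.07. PCGEM1, with 107 against 114 counts, had a ratio of 0.997 (95% interval 0.759 to 1.31), and PCAT14, with 43 against 42, a ratio of 0.914 (0.583 to 1.43).

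In C4-2, PCA3, NEAT1 and DRAIC rose with the knockdown and no member fell. Of the 7 members tested, 3 rose, beside 12.7% of all genes, and 0 fell, beside 10.8%. The median log2 fold change was 0.04 for the members and 0.01 for all genes. By an unadjusted p under 0.05 the number of members that fell was also 0, and it was 0 with DESeq2.

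PCA3 went from 2.15, 2.50 and 2.52 CPM to 4.72, 7.58 and 6.68 CPM, with no overlap (log2 fold change 1.39, SE 0.24, adjusted p = 7.72e-04). Its mean with the knockdown, 6.33 ± 1.46 CPM, lay within the range of the LNCaP R1881 and knockdown libraries. DRAIC went from 9.30, 7.67 and 9.23 CPM to 16.5, 16.1 and 18.5 CPM (log2 fold change 0.95, SE 0.13, adjusted p = 1.45e-04, and 0.58 with an adjusted p of 0.071 with thinned libraries), and all 3 knockdown libraries were above every other library of the series. DRAIC and PCA3 thus moved together with the knockdown in C4-2 after moving in opposite directions with R1881 in LNCaP.

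NEAT1 went from 128, 153 and 162 CPM to 304, 326 and 303 CPM. The lowest knockdown library lay far above the highest control, and the log2 fold change was 1.06 (SE 0.11, adjusted p = 1.29e-05). Across the 9 fits that leave out a library it lay between 0.97 and 1.13. MALAT1, its neighbour on the chromosome, was at 1192 ± 244 and 1092 ± 43.0 CPM (log2 fold change −0.14, SE 0.15, adjusted p = 0.54). The number of NEAT1 counts per MALAT1 count, which does not depend on the library size, was 0.0890, 0.130 and 0.170 in the control libraries and 0.292, 0.293 and 0.270 with the knockdown. In LNCaP the same ratio was 0.199, 0.146 and 0.203 in controls and 0.246, 0.256 and 0.211 with the knockdown.

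**Figure D3:**
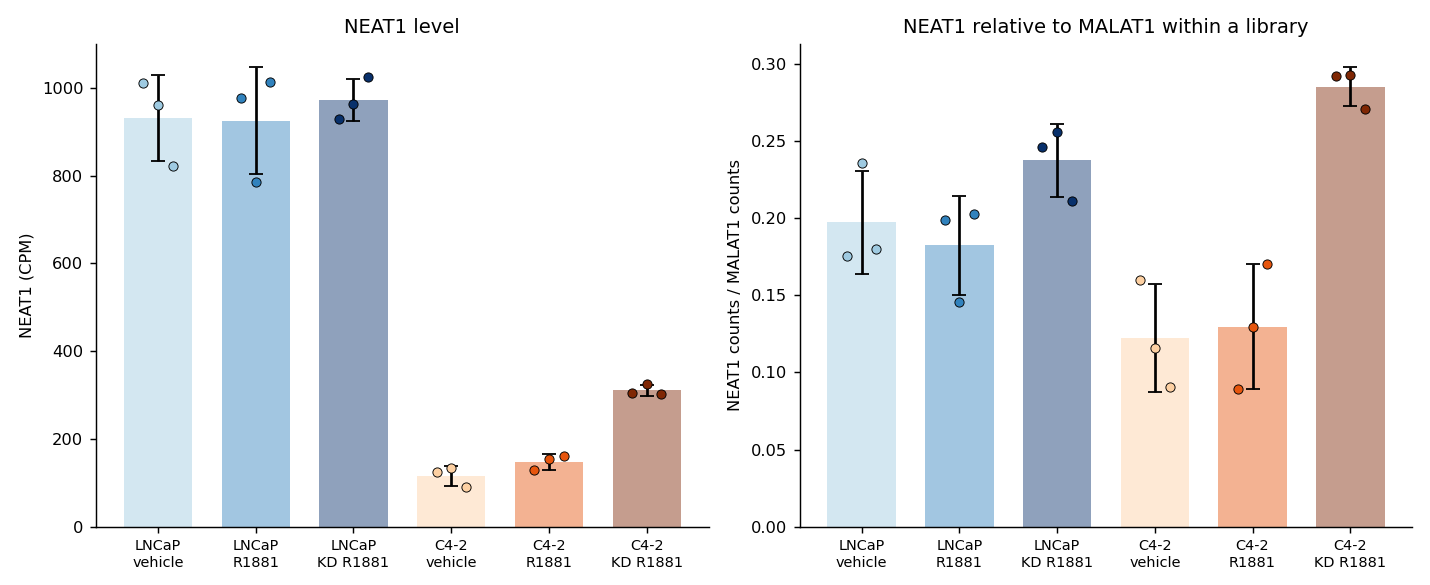
NEAT1 level in CPM (left) and NEAT1 counts divided by MALAT1 counts in the same library (right) in the 6 groups, with bars at the mean, error bars of 1 SD and a point for each of 3 libraries. In C4-2 the knockdown libraries were at 304, 326 and 303 CPM of NEAT1 and the libraries with R1881 alone at 128, 153 and 162 CPM.

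The other C4-2 members gave wide or small values. ARLNC1, lowered in LNCaP, was at 9.55 ± 0.899 CPM and 8.40 ± 1.68 CPM (log2 fold change −0.20, SE 0.18, adjusted p = 0.469). PCAT1 was at 4.42 ± 0.341 and 4.61 ± 0.520 CPM, and PCAT18, with 36 against 23 counts, at 0.688 ± 0.117 and 0.438 ± 0.253 CPM (adjusted p = 0.372). PCAT14 had 14 against 20 counts, a ratio of 1.42 with an interval of 0.682 to 3.04, and PCGEM1 4 against 0 counts, too few for a fold.

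Tested between the lines, the response to the knockdown was higher in C4-2 for PCA3 (difference in log2 fold change 1.77, SE 0.32, adjusted p = 0.001), NEAT1 (1.01, SE 0.15, adjusted p = 1.49e-04) and DRAIC (0.95, SE 0.22, adjusted p = 0.00733). These are 3 members higher, beside 6.97% of all genes, and 0 lower, beside 3.88%, where the number lower at an unadjusted p under 0.05, leaving out PCGEM1 with its empty groups, was also 0, and it was 0 with DESeq2. With thinned libraries the PCA3 and DRAIC differences were 1.45 (adjusted p = 0.0886) and 0.64 (adjusted p = 0.376). The ARLNC1 difference of 0.39 (SE 0.20, adjusted p = 0.226) did not pass. KDM1A and KDM7A were also lowered further in C4-2, as given above, and the part of this in the differences between lines was not tested.

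NEAT1 as counted here is a single exon of 22767 bases that covers a short and a long transcript, and the counts do not separate them. The 3′ ends of an annotated transcript of each form are shown because the libraries were made from polyadenylated RNA, with any AATAAA polyadenylation signal in capitals. How much of each form the libraries captured was not tested.
NEAT1-208 (2994 bases, short form): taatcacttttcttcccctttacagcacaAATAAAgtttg
NEAT1-202 (22743 bases, long form): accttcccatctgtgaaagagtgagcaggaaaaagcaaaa
The short form carries the signal 11 bases from its end within the last 40 bases shown, and the long form, whose end is known to be formed by RNase P and protected by a triple helix, has none there.

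Of 15 proteins of the paraspeckle, all were tested. With the knockdown in C4-2, 3 rose (DAZAP1 by 0.39, TAF15 by 0.34 and NUDT21 by 0.27 on the log2 scale) and 2 fell (SMARCA4 by 0.29 and PSPC1 by 0.28), with a median log2 fold change of 0.09, against 12.7% of all genes tested that rose and 10.8% that fell. SFPQ and NONO, the core proteins, gave 0.11 and 0.01 and did not pass the test. With the knockdown in LNCaP 0 of the 15 passed edgeR's test in either direction, where 1 was higher and 2 lower at an unadjusted p under 0.05 and DESeq2 called 1 in each direction. With R1881, 7 of the 15 fell in LNCaP and 6 fell in C4-2, against 23.2% and 15.7% of all genes tested. By that test 0 rose in either line, where 0 in LNCaP and 2 in C4-2 were higher at an unadjusted p under 0.05 and DESeq2 called 0. Of 14 nuclear speckle proteins and MALAT1-processing enzymes, 6 fell with R1881 in LNCaP and 1 rose with it in C4-2, where 23.2% of all genes fell and 17.1% rose. With the knockdown 1 (RBM25) fell in LNCaP and 1 (METTL16) rose in C4-2, against 5.89% and 12.7% of all genes. DESeq2 called 5 of these proteins lower with the knockdown in LNCaP, and 5 had an unadjusted p under 0.05 by edgeR.

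The comparison of the lines at the same treatment asked how levels differed between the androgen-dependent and the derived line. With vehicle, PCAT1, NEAT1, MALAT1, PCGEM1 and PCAT14 were lower in C4-2 and PCA3 and ARLNC1 were higher. These are 2 of 9 members higher, beside 29.4% of all 18684 genes tested, and 5 lower, beside 29.5%. The median log2 difference of the members was −2.28, against −0.01 over all genes. PCAT14 and PCGEM1 had too few counts to be tested within C4-2 and entered this test through their LNCaP counts. Their place among the lower members thus follows in part from the filter.

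NEAT1 was at 1011, 962 and 821 CPM in LNCaP and 125, 134 and 90.9 CPM in C4-2 (log2 difference −2.98, SE 0.11, adjusted p = 3.43e-15). MALAT1 was at 5755, 4083 and 4561 CPM against 784, 1160 and 1001 CPM (−2.28, SE 0.15, adjusted p = 4.05e-11), and PCAT1 at 59.1 ± 2.05 against 6.80 ± 1.59 CPM (−3.22, SE 0.13, adjusted p = 5.37e-15). In none of these did any library of one line reach a library of the other. PCGEM1 had 25, 58 and 42 counts in LNCaP and 0 in each C4-2 vehicle library, at least 32.2-fold lower in C4-2, where a count of 0 allows a level of up to 0.0747 CPM. PCAT14 had 8 counts against 0, at least 2.06-fold lower, and its call (adjusted p = 0.0106) was lost without replicate 1 of the LNCaP vehicle group (adjusted p = 0.0686).

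PCA3 (0.537 ± 0.305 against 2.35 ± 0.523 CPM, log2 difference 1.96, SE 0.32, adjusted p = 1.79e-05) and ARLNC1 (0.260 ± 0.107 against 1.24 ± 0.408 CPM, 2.30, SE 0.33, adjusted p = 4.34e-06) were higher in C4-2 without androgen. ARLNC1 rested on 14 against 56 counts, and with all libraries thinned to the smallest its difference was 0.69 (adjusted p = 0.402). DRAIC was at 11.6 ± 1.86 and 11.9 ± 2.30 CPM, a log2 difference of 0.07 (SE 0.15), and PCAT18 had 0 and 1 counts.

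With R1881, all 9 members differed between the lines. DRAIC was higher in C4-2, 1 of 9 members beside 28.6% of all genes, and the other 8 were lower, beside 29.7%. The median log2 difference was −2.11, against −0.01 over all genes. PCAT14 and PCGEM1 again entered the test through their LNCaP counts, so their lower calls follow in part from the filter. In none of the 9 did the ranges of the 2 groups overlap, and the share of all genes without overlap was not computed.

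PCAT1 was at 79.8, 86.7 and 92.3 CPM in LNCaP and 4.68, 4.03 and 4.55 CPM in C4-2 (log2 difference −4.30, SE 0.12, adjusted p = 3.33e-17). PCGEM1 had 107 against 4 counts, 28.2-fold lower in C4-2 with a 95% interval of 10.7 to 105. PCAT18, PCA3, PCAT14 and ARLNC1, all induced by R1881 in LNCaP, were lower in C4-2 by 2.77, 1.68, 1.65 and 1.49 on the log2 scale, and the PCAT14 call was lost when any of 3 libraries was left out (adjusted p up to 0.0718). NEAT1 and MALAT1 were lower by 2.66 and 2.11, and DRAIC was higher by 0.74 (SE 0.16, adjusted p = 3.88e-04).

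The direction of the line difference therefore turned with androgen for PCA3 and ARLNC1, which were higher in C4-2 with vehicle and lower with R1881. For NEAT1 the order of the 6 groups put the 3 LNCaP groups first, with overlapping ranges, then C4-2 with knockdown, and then C4-2 with R1881 and vehicle, which overlapped. For MALAT1 each group overlapped with the next in the order of means within its line, at group means of 4136 to 5105 CPM in LNCaP and 982 to 1192 CPM in C4-2, and no library of a line reached the other line.

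Other prostate cancer long noncoding RNAs were examined beside the members. Of 33 named, 28 had an identifier in the files and 16 to 21 were tested, depending on the comparison. With vehicle 11 of 21 were lower in C4-2 and 1 higher, and with R1881 12 were lower and 1 higher, with medians of −0.62 and −0.85. More of these RNAs were tested within LNCaP (19) than within C4-2 (16), so some entered the tests between lines through their LNCaP counts. The number lower in C4-2 thus follows in part from the filter. Among all genes tested, 29.5% were lower and 29.4% higher with vehicle and 29.7% and 28.6% with R1881, and among long noncoding RNA genes 26.8% and 14.4% with vehicle and 25.1% and 16.9% with R1881. SCHLAP1, an RNA linked to metastatic prostate cancer, was at 44.4 ± 4.64 CPM in LNCaP and 0.868 ± 0.450 CPM in C4-2 vehicle cells (log2 difference −5.53, SE 0.20, adjusted p = 9e-16). H19, an imprinted RNA, was the higher of them, at 0.0303 ± 0.0525 and 1.28 ± 0.583 CPM.

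With R1881, 5 of these RNAs rose and 7 fell of 19 tested in LNCaP, and 3 rose and 1 fell of 16 in C4-2, against 23.5% and 23.2% of all genes in LNCaP and 17.1% and 15.7% in C4-2. POTEF-AS1 rose in both, from 0.157 ± 0.0190 to 4.56 ± 0.261 CPM in LNCaP and from 0.0175 ± 0.0303 to 1.23 ± 0.239 CPM in C4-2, and so did SOCS2-AS1 (log2 fold change 1.98 and 3.91) and CTBP1-AS (1.31 and 1.64). LINC00844 (5.37) and CASC8 (1.44) rose in LNCaP. In the vehicle libraries, SOCS2-AS1 was at 0.0525, 0.115 and 0 CPM in C4-2 and LINC00844 at 0, 0.136 and 0 CPM in LNCaP. Their values of 3.91 and 5.37 are thus fits against almost no counts, and both entered these tests through libraries with R1881. In C4-2, LINC00844 was too low to be tested, at 0 CPM in the 3 vehicle libraries and 0.550, 0.682 and 0.369 CPM with R1881. With the knockdown, SNHG1 rose in both lines, by 0.23 and 0.41, PCAT6 fell in C4-2 by 1.01 and TUG1 fell in LNCaP by 0.22, and these were the only calls among them by edgeR's test.

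PCA3 lies within PRUNE2, a protein-coding gene on the opposite strand, with no exon base in common. PRUNE2 went from 342, 369 and 330 CPM to 593, 609 and 620 CPM with R1881 in LNCaP (log2 fold change 0.77, SE 0.06, adjusted p = 1.77e-08) and from 694, 815 and 762 CPM to 1494, 1789 and 1901 CPM with the knockdown in C4-2 (1.18, SE 0.10, adjusted p = 4.15e-06). It gave −0.27 with R1881 in C4-2 (adjusted p = 0.0535) and −0.06 with the knockdown in LNCaP (adjusted p = 0.585). PRUNE2 thus rose in the same pair of comparisons in which PCA3 rose. Between lines with vehicle both had higher means in C4-2, PRUNE2 at 347 ± 19.9 CPM in LNCaP and 890 ± 46.9 CPM in C4-2. Between lines with R1881 they differed in direction: PRUNE2 was higher in C4-2, at 607 ± 13.7 CPM in LNCaP and 757 ± 61.0 CPM in C4-2 (log2 difference 0.31, adjusted p = 0.00408), and PCA3 was lower. Reads were counted without strand, so unspliced PRUNE2 RNA over the exons of PCA3 cannot be told apart from PCA3.

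**Figure D4:**
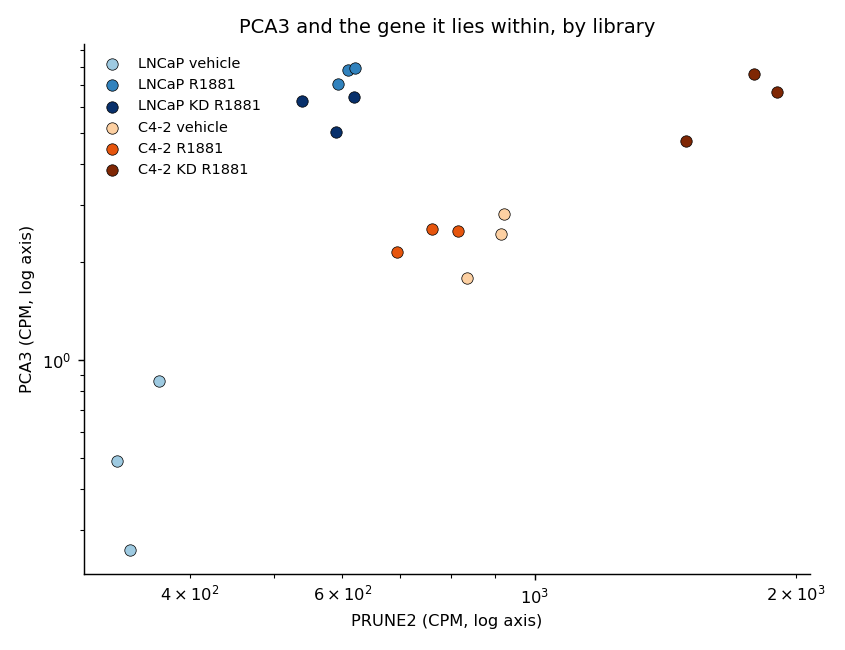
PCA3 against PRUNE2, both in CPM on log axes, with a point per library coloured by group (KD, knockdown of KDM1A and KDM7A). The 3 C4-2 knockdown libraries stand at the highest PRUNE2 levels, 1494 to 1901 CPM, with PCA3 at 4.72 to 7.58 CPM, and the 3 LNCaP vehicle libraries at the lowest of both.

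The nearest protein-coding genes of the other members did not all move with them. CDYL2, 24406 bases from ARLNC1 and on the same strand, rose with R1881 in LNCaP (1.48) and C4-2 (1.58), from 59.7 ± 4.38 to 171 ± 2.74 CPM and from 60.8 ± 2.66 to 186 ± 7.81 CPM, and fell with the knockdown in C4-2 by 0.40, where ARLNC1 did not pass the test. Near PCAT18, KCTD1 and AQP4 rose with R1881 in both lines, KCTD1 by 0.50 and 0.58 and AQP4 by 3.40 and 2.09 on the log2 scale. FRMD8, 9249 bases from NEAT1, rose with the knockdown by 0.36 in LNCaP (adjusted p = 0.0455) and 0.49 in C4-2, and was higher in C4-2 than in LNCaP with vehicle (0.36), where NEAT1 was lower. RPLP1, 6832 bases from DRAIC, gave 0.24 with the knockdown in C4-2 (adjusted p = 0.217), and TLE3, the next gene above DRAIC on the chromosome, fell with R1881 as DRAIC did, by 1.17 in LNCaP and 0.89 in C4-2. TMEFF2, the nearest protein-coding gene to PCGEM1 at 554136 bases and on the opposite strand, had a log2 difference between the lines of −8.04 with vehicle, the same direction as PCGEM1.

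Over the 18 libraries the patterns of the members fell along these differences. The Pearson correlation of log2 CPM was 0.97 between PCAT1 and both PCGEM1 and MALAT1, 0.98 between PCGEM1 and MALAT1, and 0.91 and 0.89 between ARLNC1 and PCAT18 and between ARLNC1 and PCA3, while DRAIC was below 0 with each of the other 8. The libraries share the line and the treatment, so these values describe the groups and not separate observations. Among genes with a mean of at least 1 CPM, the most alike in pattern were ACPP for PCAT1 (1.00), MICU3 and TMEFF2 for PCGEM1 (both 0.99), UGT2B28 and ATAD2 for ARLNC1 (both 0.99), C1orf21 and SMS for PCAT18 (both 0.99), C1RL and YJEFN3 for NEAT1 (both 0.99), ZNF347 and ZNF667 for MALAT1 (both 0.99), NABP1 and PAM for DRAIC (both 0.95) and ACSS2 and ERCC6L for PCA3 (both 0.93). The second gene for PCAT1 is not listed, and PCAT14, with a mean under 1 CPM, was not searched.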

How the data were processed

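The deposited files hold, per library, raw read counts per gene that the authors made with featureCounts 1.5.0-p1 on read pairs aligned with STAR to GRCh38 (Ensembl 83 annotation) after adapter and quality trimming with Trim Galore. Per the file headers, no option for strand, multi-mapping reads or overlapping features was set, so reads in exons shared by genes were not counted. Symbols came from GENCODE 29, which matched 57055 of 60675 identifiers, and promoters from RefSeq.

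From these counts, genes with too few reads were removed with filterByExpr in edgeR 4.0.16. A gene needed at least 15 counts in all. It also needed a CPM worth 10 counts at the median library size in as many libraries as the smallest group holds. Libraries were then scaled by TMM, and edgeR's quasi-likelihood test was fitted over all genes with Benjamini-Hochberg adjustment. R1881 and knockdown were fitted within each line (9 libraries), and the lines and the differences in response over all 18 libraries. DESeq2 1.42.0 was an alternative. On simulated counts with known changes, 86 of 100 genes with a log2 change of 1 were recovered for R1881 in LNCaP, 85 of 98 for R1881 in C4-2, 74 of 96 between lines with vehicle and 67 of 94 for the difference of R1881 responses. Counting intervals are exact binomial (SciPy), and PCR copies are not separated from molecules.

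The members and all gene lists were chosen with earlier results of these data known. Named genes were the members, their overlapping or nearest protein-coding genes, up to 5 genes per list with the largest changes that passed the test, and the 2 genes most alike in pattern. The lists were luminal, basal, stromal, neuroendocrine and leukocyte markers, paraspeckle proteins, nuclear speckle proteins and other prostate cancer long noncoding RNAs, of which PCAT2, PCAT29, PCSEAT, CCAT1 and LINC00675 had no identifier. Some named genes are not reported here.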

Additional observations from a re-analysis of the deposited data

Results flagged for a closer look

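The response to R1881 differed between the lines, by the test of the difference itself (log2 fold change in C4-2 minus that in LNCaP), for PCA3 (−3.64), PCAT1 (−1.07), DRAIC (0.68) and ARLNC1 (−3.79). The response to the dual knockdown differed for PCA3 (1.77), DRAIC (0.95) and NEAT1 (1.01). In C4-2 vehicle cells PCA3 was at 2.35 ± 0.523 CPM and in LNCaP vehicle cells at 0.537 ± 0.305 CPM (SD, n = 3), so the lines did not start from the same level.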

How the results depend on the processing

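Of 61 member tests, 37 passed the threshold, 26 of these under every alternative run in which the gene was tested. Runs whose filter removed the gene are not counted in this. Over these 37 tests and the alternative runs there were 843 values, and none changed direction. Many of these values came from the same fits. Requiring at least 10 counts in every library removed low members and left 2 changed with R1881 in LNCaP, 2 with R1881 in C4-2, 0 with the knockdown in LNCaP, 3 between lines with vehicle, 4 with R1881 and 2 in the difference of R1881 responses. Thinning every library to the smallest left 2 for R1881 in C4-2, 4 between lines with vehicle and 1 in the difference of knockdown responses, and gave 2 for the knockdown in LNCaP. Requiring a 2-fold change left 2 for R1881 in C4-2 and 0 for the knockdown in LNCaP, which rose to 2 with no filter or with only the compared groups fitted. Leaving out a library gave 2 to 5 for R1881 in C4-2, with 2 without replicate 2 of the R1881 group, and 1 to 2 for the knockdown in LNCaP.

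Direction changed in 10 of the 24 member tests that had not passed the threshold. With the GC trend removed, values became −0.056 (MALAT1, R1881, LNCaP), −0.11 (PCA3, R1881, C4-2), 0.018 (PCAT14, knockdown, LNCaP) and 0.16 (PCGEM1, knockdown, LNCaP). With thinning they became −0.19 (DRAIC, lines with vehicle), −0.049 (DRAIC, knockdown, LNCaP), −0.087 (PCA3, R1881, C4-2) and −0.12 (PCAT1, knockdown, C4-2). Leaving out a library gave −0.049 to 0.21 for DRAIC between lines with vehicle, −0.11 to 0.19 for DRAIC, −0.027 to 0.14 for NEAT1, −0.33 to 0.086 for PCAT14 and −0.20 to 0.12 for PCGEM1 with the knockdown in LNCaP, −0.037 to 0.22 for MALAT1 and −0.12 to 0.068 for NEAT1 with R1881 in LNCaP, −0.22 to 0.25 for PCA3 with R1881 in C4-2, and −0.28 to 0.020 for MALAT1 and −0.045 to 0.089 for PCAT1 with the knockdown in C4-2. The cause of these changes was not tested.

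The labels do not say whether same-numbered samples were paired. Their deviations from the group means correlated from −0.0943 to 0.102 over 12 pairs, which does not exclude pairing. A replicate block gave 6 members for R1881 in LNCaP, 5 in C4-2 (4 without it), 1 and 3 for the knockdown, 7 and 9 between lines, and 4 and 3 in the differences, and lowered all genes changed by R1881 in LNCaP from 8002 to 7896 and raised the count in the other comparisons, the knockdown in C4-2 from 3983 to 4322 and the difference of knockdown responses from 2028 to 2359. Group means of the members moved by a factor of 0.986 to 1.03 with another scaling and 0.953 to 1.11 with library totals free of NEAT1 and MALAT1. At 3182604 counts in the smallest library, low members such as PCAT14 and PCGEM1 are limited by depth.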
